A study of Mus musculus with 6 samples.

Results

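Transcripts of red cell precursors and of neutrophil precursors were examined in RNA from sorted regulatory T cells (Treg), as a module of 38 named genes. The members were the rows of the counts table with these symbols, and 37 of the 38 were found among the 29199 genes of the table. They comprise 22 of 23 red cell genes and all 15 granulocyte genes, and the member with no row, Ahsp, was not analysed here. All 37 passed the filter on low counts. The members were selected on their expression levels in 1 of the 6 libraries, replicate 3 of Treg with WT Tconv, where they stood out, so their levels in that library are given as a description and without a test. Tests were restricted to the other 5 libraries. The hosts were lethally irradiated mice, either C57BL/6 J or CD45.1+ B6, and received B6 and semi-allogeneic B6D2F1 marrow, wild-type (WT) Treg expanded ex vivo from B6 Foxp3-Thy1.1 mice, and naive conventional CD4 T cells (Tconv). The Tconv were WT in 3 libraries and lacked HP1α, a heterochromatin protein encoded by Cbx5 (Hp1a), in the other 3. The knockout (KO) came from a floxed Hp1a allele deleted by CMV-cre, which acts in all tissues, in mice of mixed background (129/Sv x C57BL/6) with littermate controls, and the mice used were 6 to 12 weeks old. Treg of both groups were WT. They were recovered from the spleen 3 weeks after the graft, enriched with CD4 beads and sorted by flow cytometry for CD4, CD45.2, Thy1.1 and H-2Kb and against CD45.1 and H-2Kd. The stage markers bear on whether such transcripts in a library are those of mature blood or of precursors as found in marrow or in the spleen.

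Red cell precursors arise from progenitors that depend on the erythropoietin receptor and on the transcription factors Gata1, Tal1 and Klf1. They first switch on membrane and heme genes, then fill with globin mRNA, and lose the nucleus before they enter the blood. The mouse spleen, unlike the human spleen, makes red cells and granulocytes as well as the marrow does, above all under demand. Neutrophils are built in a fixed order. Promyelocytes make the enzymes of primary (azurophil) granules, myelocytes and metamyelocytes make the proteins of secondary (specific) granules, band cells make gelatinase granules, and mature cells carry chemokine and formyl peptide receptors while the earlier granule genes are off.

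Library totals ranged from 87421755 to 119078882 estimated counts, the highest in WT replicate 3, and levels are given as counts per 1000000 counts of the library (CPM). Foxp3, the defining factor of Treg, had 15348 to 24486 counts per library and Cd4 68724 to 85291. The summed level of 9 T cell reference genes was 4876 CPM in WT replicate 3 against 5346 to 5753 CPM elsewhere, and that of 6 Treg genes was 3904 CPM against 3547 to 4436 CPM. WT replicate 3 therefore had the lowest T cell reference sum, whereas its Treg sum lay within the range of the others. Replicates are separate samples by their labels, and nothing in the labels ties them to separate mice, so p-values measure the spread between these libraries.

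The 37 members together took 0.991% of all counts in WT replicate 3 and between 0.0596% and 0.122% in each of the other 5 libraries. Their summed level was 9914 CPM in that library, against 662 and 596 CPM in WT replicates 1 and 2 and 1142, 642 and 1218 CPM in KO replicates 1, 2 and 3. The red cell members made up 7647 CPM of this sum and the granulocyte members 2267 CPM. Every member was highest in WT replicate 3, 35 of 37 were at least 2-fold above the highest other library, and 12 were at least 10-fold above it, all of them red cell genes. With 6 libraries, 18321 genes passed the count filter. Of these, 18.0% were highest in this library, 3.30% were at least 2-fold above the highest other one and 0.502% at least 10-fold. These shares stand beside the members' counts without a test, because the same library chose the members. The all-gene share at 2-fold or more in the other libraries was 0.0873% in WT replicate 1, 0.0546% in WT replicate 2, 0.126% in KO replicate 1, 0.109% in KO replicate 2 and 0.153% in KO replicate 3. In bulk RNA, fewer cells of a type and less RNA per cell cannot be told apart.

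**Figure D1:**
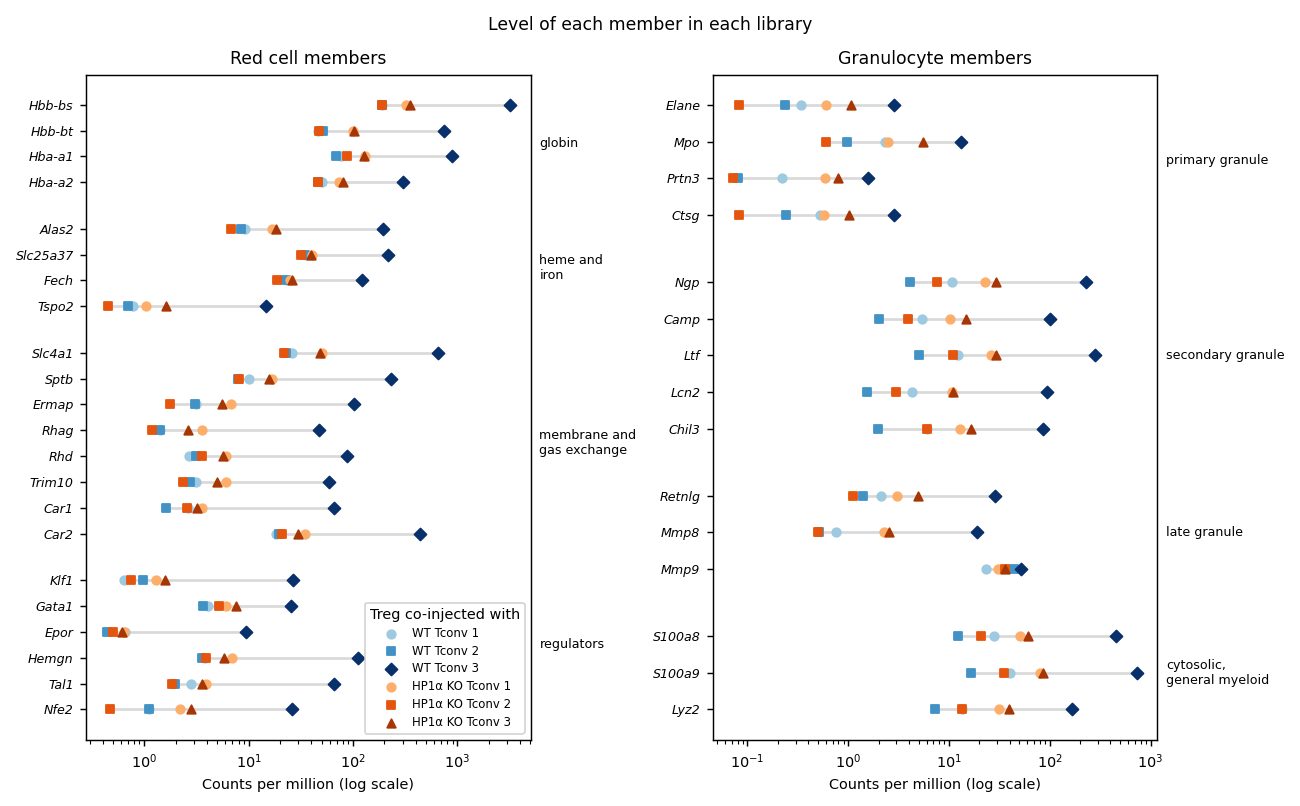
Level of each of the 37 members in CPM (log axis) in each library, red cell members on the left and granulocyte members on the right, ordered by role. Each symbol is 1 library. The dark blue diamond, WT replicate 3, is the rightmost symbol for all 37 members, and Mmp9 is the member where it lies nearest to the rest.

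The globins are the oxygen carriers of the red cell, and Hbb-bs had the highest CPM of all members in each of the 6 libraries. Hbb-bs, the main adult beta globin of B6 mice (GRCm39 chromosome 7, 103475730 to 103482989, minus strand), was at 191, 191 and 3215 CPM in WT replicates 1, 2 and 3 and at 321, 191 and 351 CPM in KO replicates 1, 2 and 3. WT replicate 3 stood 9.17-fold above the highest other library (95% counting interval 9.06 to 9.27), and KO replicates 1 and 3 stood above the 3 remaining libraries. Hbb-bt, its neighbour with a transcript 93.4% identical over 621 aligned bases, was at 46.3, 51.5 and 744 CPM with WT Tconv and 98.9, 47.1 and 102 CPM with KO Tconv. For the alpha globins, too, KO replicates 1 and 3 came next after WT replicate 3. Hba-a1 (chromosome 11, 32233186 to 32234504, plus strand) measured 76.1, 68.5 and 886 CPM with WT Tconv and 130, 86.9 and 127 CPM with KO Tconv. Its copy Hba-a2 (32246168 to 32247320) measured 49.9, 45.7 and 301 CPM with WT Tconv and 73.9, 45.9 and 79.7 CPM with KO Tconv. The 2 alpha globin transcripts differ by 1 mismatch over 647 aligned bases of Hba-a2, and the 250 bases upstream of their start sites are identical, so the split of reads between them is uncertain.

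Among the genes of heme and iron, Alas2 showed the widest separation. It encodes the first and rate-limiting enzyme of heme synthesis in red cells and was at 9.31, 8.45 and 194 CPM in WT replicates 1, 2 and 3 and at 16.9, 6.73 and 18.5 CPM in KO replicates 1, 2 and 3, with WT replicate 3 10.5-fold above the highest other library (interval 10.0 to 11.1). Tspo2, a translocator protein of erythroblasts, was 9.12-fold above it at 14.7 CPM. Slc25a37 (mitoferrin 1), the importer of iron into mitochondria, reached 217 CPM against 31.4 to 40.5 CPM, and Fech, the enzyme that inserts iron into the porphyrin ring, 121 CPM against 18.7 to 25.8 CPM. Both of these genes were thus well above 10 CPM in every library, and their ratios, 5.37 and 4.68, were the lowest of the 4.

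The genes of the red cell membrane and of gas exchange were the role with the largest ratio of summed levels. They summed to 1689 CPM in WT replicate 3 and to 62.1 to 129 CPM elsewhere, 13.1-fold above the highest other library (interval 12.9 to 13.3). Slc4a1 (band 3), the chloride and bicarbonate exchanger that anchors the membrane skeleton, measured 25.8, 22.8 and 654 CPM with WT Tconv and 50.8, 21.7 and 48.1 CPM with KO Tconv. Sptb, the beta chain of red cell spectrin, followed with 10.1, 7.91 and 233 CPM with WT Tconv and 16.8, 8.09 and 15.8 CPM with KO Tconv. KO replicates 1 and 3 lay above the other 3 libraries for both genes, and KO replicate 2 lay between or below WT replicates 1 and 2. Car1, a carbonic anhydrase of red cells, had the largest ratio of any member, 18.5-fold (interval 16.6 to 20.7), at 65.8 CPM against 1.60 to 3.56 CPM. Car2, a carbonic anhydrase found in other tissues as well, was at 439 CPM against 18.2 to 35.0 CPM. The remaining genes of this role, Ermap, Rhag and Rhd (blood group proteins) and Trim10 (a tripartite motif protein of erythroblasts), had ratios of 15.1, 13.1, 14.3 and 9.78.

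The erythroid regulators are active in nucleated precursors, and mature red cells hold no nucleus. Klf1, the zinc finger factor that activates beta globin (chromosome 8, 85628557 to 85631934, plus strand), was at 0.633, 0.974 and 26.8 CPM in WT replicates 1, 2 and 3 and at 1.31, 0.741 and 1.58 CPM in KO replicates 1, 2 and 3. These are 61, 96, 3186, 119, 72 and 138 counts. Tal1, the basic helix-loop-helix partner of Gata1, was at 2.83, 1.98 and 66.3 CPM with WT Tconv and 3.91, 1.84 and 3.55 CPM with KO Tconv. Both were 16.9- to 17.0-fold above the highest other library. Epor, the erythropoietin receptor, was at 9.36 CPM in WT replicate 3 and at 0.436 to 0.654 CPM in the other 5, which hold 43 to 63 counts each and have no clear order. Hemgn, a nuclear protein of erythroblasts, and Nfe2, a factor of erythroid cells and megakaryocytes, had ratios of 16.1 and 9.22. Gata1 was the exception in this role, with 25.5 CPM in WT replicate 3 and 3.67 to 7.62 CPM elsewhere, a ratio of 3.35 (interval 3.08 to 3.65). Exons of Klf1 share 52.7% of their bases with the opposite-strand gene Gcdh, those of Epor 42.6% with Swsap1 and those of Gata1 13.3% with a long noncoding RNA. The library kit keeps the strand, but the strand setting of the counting is not given in the sources used here, so part of the low counts of these 3 genes may belong to their partners. The same limit holds for other members with opposite-strand overlaps, among them Slc25a37 (23.6%), Lyz2 (16.1%), Mpo (15.3%), Rhd (13.2%), Alas2 (11.6%), Prtn3 (11.4%) and Tspo2 (11.0%).

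Gata1 and its relatives bind the letters GATA with A or T before them and A or G after them, here called the GATA motif and searched on both strands in the 250 bases before each gene's start in RefSeq (GRCm38.p6 table). It was found upstream of 12 of 16 red cell members with an entry (75%) and 5 of 14 granulocyte members (35.7%), against 29.7% of 27025 genes in the table. TTNNGCAA, a core of C/EBP sites, was found upstream of 2 of 16 red cell members (12.5%), 6 of 14 granulocyte members (42.9%) and 10.8% of all genes. A match is a description of letters and not a binding site. The stretches below are examples that put a motif beside some of the members whose levels are described. None is from the membrane and gas exchange, primary granule or late granule roles. Each is 60 bases, 5′ to 3′ on the gene's strand, placed by exact match on GRCm39 outside annotated exons, with the motif on either strand in capitals. They are chr7:103477313-103477372 (minus) for Hbb-bs, chrX:149330300-149330359 (plus) for Alas2, chr8:85628497-85628556 (plus) for Klf1, chr9:21874894-21874953 (minus) for Epor, chr9:110848259-110848318 (plus) for Ltf and chr3:90603219-90603278 (minus) for S100a9. The first 4 hold a GATA motif, which begins 210, 86, 80 and 54 bases before the RefSeq start, and Ltf and S100a9 hold a C/EBP core 75 and 236 bases before it. RefSeq starts can differ from the limits of the gene positions printed in this report. The Hbb-bs stretch, for example, lies within the span printed for that gene.
Hbb-bs: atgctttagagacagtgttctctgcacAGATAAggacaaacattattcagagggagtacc
Alas2: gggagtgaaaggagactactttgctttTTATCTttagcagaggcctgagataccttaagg
Klf1: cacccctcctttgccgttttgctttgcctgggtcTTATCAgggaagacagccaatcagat
Epor: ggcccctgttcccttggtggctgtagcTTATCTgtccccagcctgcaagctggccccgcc
Ltf: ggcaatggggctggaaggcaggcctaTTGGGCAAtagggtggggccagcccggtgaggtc
S100a9: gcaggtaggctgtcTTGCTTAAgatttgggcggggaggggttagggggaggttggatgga

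**Figure D2:**
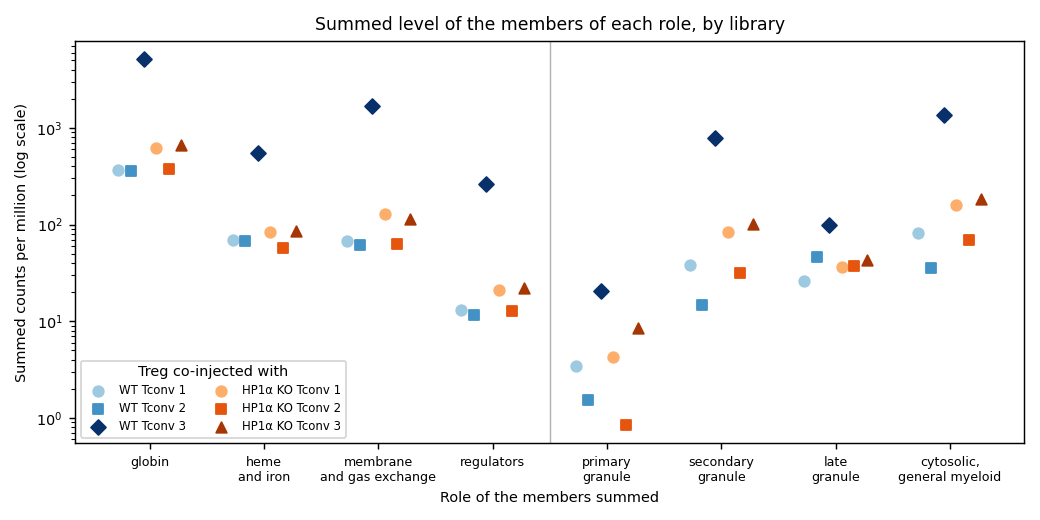
Summed CPM (log axis) of the members of each role in each library, red cell roles left of the line and granulocyte roles right of it. Each symbol is 1 library. WT replicate 3 is highest in all 8 roles, by 13.1-fold for membrane and gas exchange and by 2.15-fold for late granules, a sum that is mostly Mmp9 (ratio 1.17) outside WT replicate 3.

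The mixture of red cell transcripts also differed between libraries. Klf1 had 52.0 counts for every 10000 globin counts in WT replicate 3 (interval 50.2 to 53.8), where the other libraries had 17.4 to 27.3. The ratio of Tal1 to 10000 globin counts was 129 there against 49.6 to 77.9, that of Hemgn 216 against 87.3 to 111, and that of Slc4a1 1270 against 585 to 815. For Alas2 it was 377 against 181 to 280. These 5 genes were more frequent relative to globin in WT replicate 3 than in any other library. The ratios are given without a test, and their intervals cover counting error only. The 4 heme and iron members together went the other way, at 1062 against 1296 to 1888, with Slc25a37 at 422 against 601 to 979 and Fech at 234 against 391 to 646. Among the other 5 libraries these 2 genes had similar CPM at differing globin levels, so their ratio to globin is lower wherever globin is high. Epor, at 18.2 (interval 17.1 to 19.3) against 9.20 to 18.0, lay close to the next library. Gata1 was also lower, at 49.6 against 96.5 to 142. Ratios within the globins also lay outside the range of the others, with 3.33 beta globin counts per alpha globin count against 1.79 to 2.19 and 2.94 Hba-a1 counts per Hba-a2 count against 1.5 to 1.89, the latter resting on the uncertain split of reads between these copies. For Hbb-bs over Hbb-bt the value was 4.32 against 3.25 to 4.13. These copies are 93.4% identical over 621 aligned bases, so the split of reads between them carries some uncertainty too. The part of the B6D2F1 marrow in the globin ratios was not tested.

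Primary granule genes, the products of promyelocytes, summed to 20.4 CPM in WT replicate 3 and to 0.843 to 8.43 CPM elsewhere, a ratio of 2.42 (interval 2.23 to 2.63). Mpo, myeloperoxidase, was at 2.34, 0.974 and 13.2 CPM in WT replicates 1, 2 and 3 and at 2.49, 0.607 and 5.55 CPM in KO replicates 1, 2 and 3. Elane, neutrophil elastase, was at 0.343, 0.233 and 2.84 CPM with WT Tconv and 0.606, 0.0823 and 1.08 CPM with KO Tconv. WT replicate 3 was 2.37-fold and 2.64-fold above KO replicate 3, the next library, for these genes. Ctsg (cathepsin G) had 338 counts in WT replicate 3 against 8 to 89 elsewhere, and Prtn3 (proteinase 3) 186 against 7 to 69. For Prtn3 the ratio was 1.98, under 2-fold, with an interval of 1.49 to 2.65. KO replicate 2 held the fewest counts of all 4 genes, 8 for Elane, 59 for Mpo, 7 for Prtn3 and 8 for Ctsg.

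Secondary granule genes, the products of myelocytes and metamyelocytes, were far more abundant. Ltf, the iron binding protein lactoferrin (chromosome 9, 110848339 to 110871835, plus strand), measured 12.2, 5.00 and 283 CPM with WT Tconv and 26.4, 10.9 and 29.3 CPM with KO Tconv. Ngp, a cystatin-like granule protein, had 10.7, 4.11 and 229 CPM with WT Tconv and 22.6, 7.56 and 29.0 CPM with KO Tconv. Their ratios over the highest other library, KO replicate 3, were 9.66 (interval 9.28 to 10.1) and 7.89 (interval 7.58 to 8.22). WT replicate 2 was the lowest library for both. Camp, the cathelicidin precursor, Lcn2, a carrier of bacterial siderophores, and Chil3, a chitinase-like protein, had ratios of 6.67, 8.59 and 5.27. Chil3 has near-identical relatives, Chil4 at 94.3% and Gm6522 at 95.0% of aligned bases, so its counts are less certain. Scaled to 1000 exonic bases, levels in WT replicate 3 were 167 CPM for Ngp, 114 CPM for Camp and 79.6 CPM for Ltf, against 3.84 CPM for Mpo and 2.88 CPM for Elane.

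Of the later and general myeloid genes, S100a8 and S100a9, the subunits of calprotectin, had the highest CPM of the granulocyte members in WT replicate 3. S100a9 (chromosome 3, 90599931 to 90603071, minus strand) was at 39.9, 16.4 and 733 CPM in WT replicates 1, 2 and 3 and at 79.1, 35.1 and 84.7 CPM in KO replicates 1, 2 and 3. S100a8 was at 27.9, 12.2 and 458 CPM with WT Tconv and 50.6, 20.8 and 60.4 CPM with KO Tconv. The 5 libraries below WT replicate 3 had the same order for both genes, with KO replicate 3 highest and WT replicate 2 lowest. Lyz2, the lysozyme of neutrophils, monocytes and macrophages, was at 165 CPM against 7.21 to 39.0 CPM, a ratio of 4.23. Mmp8 (neutrophil collagenase) and Retnlg (a resistin-like protein of neutrophils) had ratios of 7.40 and 5.90. Mmp9, the gelatinase, did not share this pattern, with 23.4, 44.6 and 52.2 CPM with WT Tconv and 30.9, 35.6 and 35.6 CPM with KO Tconv. Its ratio was 1.17 (interval 1.13 to 1.22), and WT replicate 2, the lowest library for S100a8 and S100a9, was the second highest for Mmp9.

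The mixture of granule transcripts ranged widely among libraries. Per 100 secondary granule counts there were 2.58 primary granule counts in WT replicate 3 (interval 2.48 to 2.69). WT replicates 1 and 2 had 8.85 (7.88 to 9.91) and 10.5 (8.79 to 12.4), and KO replicates 1, 2 and 3 had 5.13 (4.62 to 5.69), 2.69 (2.13 to 3.35) and 8.39 (7.77 to 9.05). KO replicate 2 lay nearest to WT replicate 3, and the other 4 libraries had higher shares. The intervals cover counting error only, and the libraries were not tested against each other. Lyz2 had 20.8 counts per 100 secondary granule counts in WT replicate 3 and 34.7 to 49.3 elsewhere. S100a8 and S100a9 together had 150.4 against 144 to 195, and Retnlg and Mmp8 together 6.02 against 5.15 to 13.1, both inside the range of the others. There were 6.51 globin counts per secondary granule count in WT replicate 3 (interval 6.46 to 6.55) and 6.56 in KO replicate 3 (interval 6.42 to 6.71), against 24.4 in WT replicate 2.

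**Figure D3:**
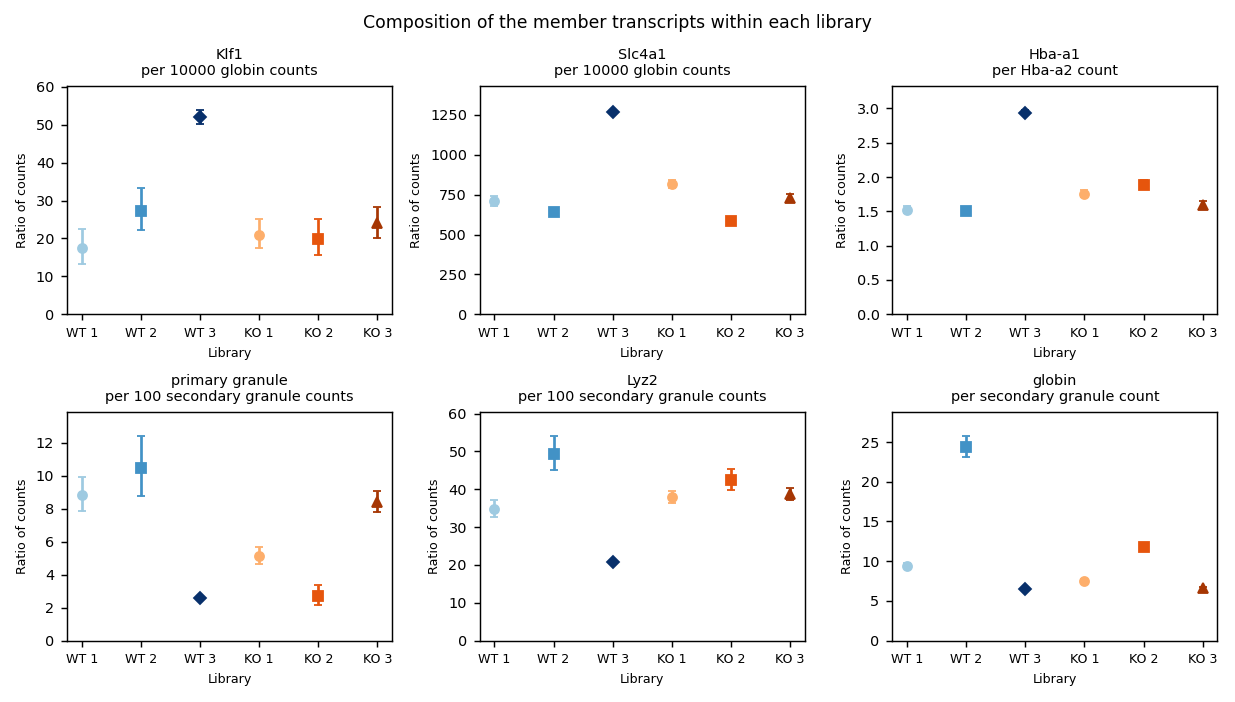
Ratios of counts within each library, 1 panel per ratio, with 95% counting intervals and axes that start at 0. WT 3 stands above the other libraries for Klf1 and Slc4a1 per 10000 globin counts and for Hba-a1 per Hba-a2 count (a split of reads that is uncertain, which the intervals do not cover), stands below them for Lyz2, and lies beside KO 2 for primary granule counts and beside KO 3 for globin per secondary granule count.

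Genes that are not members mark stages and cell types around these precursors. Of 15 further late erythroid genes, all 15 were highest in WT replicate 3 and 9 were at least 10-fold above the highest other library. Cldn13, a claudin of mouse erythroblasts, was at 45.2 CPM with a ratio of 18.2. Of 8 early erythroid and progenitor genes, 7 were highest there. Gfi1b and Lmo2, factors of erythroid progenitors, had ratios of 12.7 and 9.77, and Tfrc, the transferrin receptor that dividing T cells use too, 3.93. The stem and progenitor genes Kit, Gata2 and Cd34 had 771, 113 and 36 counts in WT replicate 3, with ratios of 1.44, 3.19 and 4.85. Myb, at 0.992, was not higher, but it had 2182 to 4376 counts per library, so its ratio could not show a small progenitor share. Among the embryonic globins, Hba-x had 5 counts in WT replicate 3 and Hbb-y 24. Heme synthesis genes used by all cells had a median ratio of 2.08, with Alas1, the form of the first enzyme outside red cells, at 0.717.

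On the granulocyte side, all 7 genes of intermediate neutrophil stages were at least 2-fold above the highest other library, with Cd177 at 39.0 CPM and a ratio of 8.18. Of 5 granulocyte progenitor genes 3 were at least 2-fold above it, namely Ms4a3, Fcnb and Cebpe with 241, 418 and 176 counts. The others, Gfi1 and Cebpa, were at 0.656 and 0.568 of the highest other library. Outside WT replicate 3 they had 2376 to 4748 and 707 to 1345 counts per library, against 3 to 101 for Ms4a3, Fcnb and Cebpe. A small progenitor share could therefore not be seen in the ratios of Gfi1 and Cebpa. At least 2-fold higher were also 9 of 10 blood neutrophil genes, among them the chemokine receptor Cxcr2 at 6.6 CPM (ratio 3.77), the formyl peptide receptor Fpr2 at 7.28 CPM (7.40) and Trem1 at 6.12 CPM (6.54). Without Il1r2, which had 4043 to 15628 counts per library, these genes had 6.59 counts per 100 secondary granule counts in WT replicate 3 and 11.8 to 29.8 elsewhere. This holds for the sum of the 9 genes and not for each of them, since Fpr2 had 867 counts beside 94212 secondary granule counts in WT replicate 3 and 22 beside 3718 in WT replicate 1, a higher ratio in the former. The sum also leans on Hdc, which held 256 of its 430 counts in WT replicate 2, the library at 29.8. In WT replicate 3 Hdc held 1677 of 6212 counts.

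Markers of other cells of blood and spleen moved unevenly with the members. Of 10 platelet and megakaryocyte genes, 2 were at least 2-fold above the highest other library, the summed level was 9.07 CPM against 3.87 to 5.08 CPM, Pf4 and Ppbp had 57 and 96 counts, and Gp1ba and Gp1bb had 0, which allows up to 3 counts each. Of 9 red pulp macrophage genes, 8 were highest in WT replicate 3 and 2 at least 2-fold. Spic, their defining factor, had 68 counts and a ratio of 0.782, and Slc40a1, an iron exporter that erythroblasts express too, had 6.47. Basophil and mast cell genes summed to 23.6 CPM against 0.0617 to 6.73 CPM, and 4 of 5 were at least 2-fold. KO replicate 2 had 6 counts over these 5 genes and 0 of Mcpt8 and Fcer1a. Eosinophil genes summed to 13.9 CPM against 0.274 to 6.94 CPM, with Epx higher in KO replicate 3 (162 counts) than in WT replicate 3 (129). For B cells, 4 of 5 genes were at least 2-fold, for NK cells 3 of 5 (Ncr1, Klra8 and Klre1, with ratios of 9.66, 6.85 and 6.44), and for monocytes 2 of 7. The part of these cells in the members' levels was not tested. Among genes outside the module with at least 200 counts in WT replicate 3, the 15 with the largest ratios comprised 11 immunoglobulin genes, led by Ighv1-85 with 521 counts against 0 elsewhere, and Abcg4, Fads3, Rnf212 and Slc30a10 with ratios of 21.8, 21.3, 20.3 and 20.1.

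**Figure D4:**
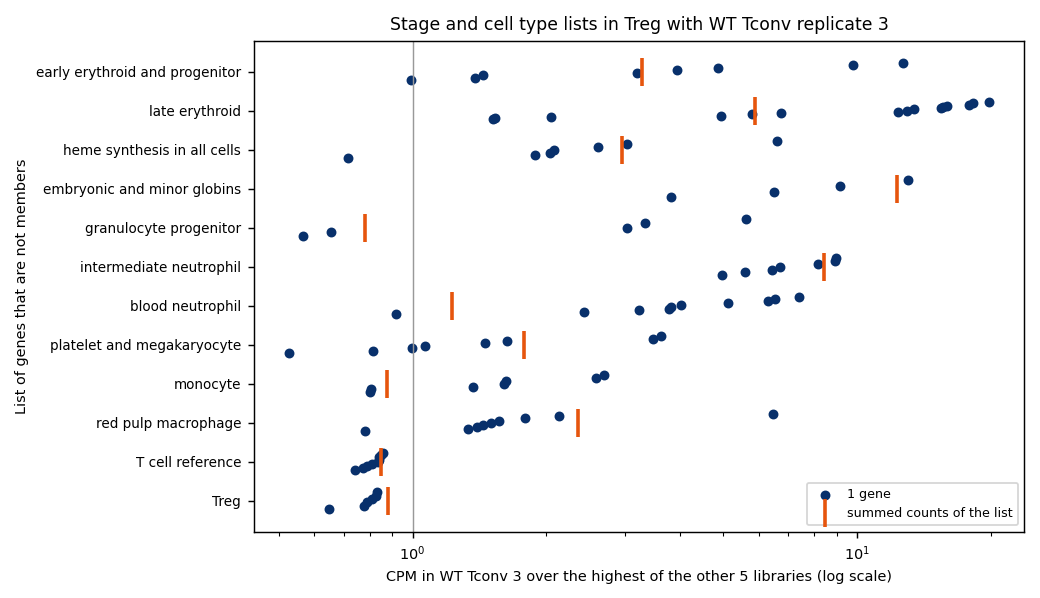
Ratio of CPM in WT replicate 3 to the highest of the other 5 libraries (log axis) for genes that are not members, by list. Each dot is 1 gene, and the orange bar is the ratio of the summed counts. Platelet genes Gp1ba and Gp1bb, with 0 counts in WT replicate 3, are not drawn. Late erythroid and intermediate neutrophil genes lie to the right, and all T cell reference and Treg genes lie left of 1.

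The same genes were then compared between the groups in the 5 libraries that did not choose them, 2 with WT Tconv and 3 with KO Tconv. With edgeR's quasi-likelihood test and Benjamini-Hochberg adjustment over 18678 genes, 0 of 37 members and 0 of all genes passed an adjusted p of 0.05 (0%). The log2 fold change of KO over WT was above 0 for 35 of 37 members, with a median of 0.67, where 51.3% of all genes were above 0 with a median of 0.0078. Red cell members had a median of 0.56 and a largest value of 0.79, and granulocyte members a median of 1.34 and a largest value of 1.65. A log2 fold change above 1 was seen for 10 of 15 granulocyte members, 0 of 22 red cell members and 2.81% of all genes. The smallest adjusted p of any member was 0.380. At an unadjusted p under 0.05 there were 4 members, Gata1 (0.67 ± 0.19 SE), Hba-a1 (0.63 ± 0.19), Rhd (0.79 ± 0.26) and Car2 (0.57 ± 0.22), where 11.2% of all genes were found and 5.52% of all genes were found on the higher side.

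The order of these 5 libraries followed the group only in part. KO replicates 1 and 3 were both above the other 3 libraries for 35 of 37 members, against 14.8% of 18641 other genes, the exceptions being Epor and Mmp9. KO replicate 2 was the lowest of the KO libraries for 36 of 37 members, a count whose share over all genes was not computed. It also differed most from its group when genes were compared at large. Chi-square over its degrees of freedom was 142 and 177 against KO replicates 1 and 3, and 29.6 between those replicates. All 3 KO libraries were above both WT libraries for 6 members, Hba-a1, Rhd, Car2, Gata1, Hemgn and Chil3, against 19.9% of all genes. The members moved together across these libraries, so these counts are not independent observations. Summed levels were 505 CPM for the red cell members in the WT libraries (513 and 497) and 748 CPM ± 212 (SD, n = 3) in the KO libraries (858, 503 and 882). For the granulocyte members they were 124 CPM (149 and 98.5) and 253 CPM ± 102 (SD, n = 3; 284, 139 and 336), so KO replicate 2 lay within the WT values for both sums, and the KO libraries ranged over more than the difference between the group means. A fit without KO replicate 2 leaves out the library already seen to be the lowest of its group, so no conclusion is drawn from it. In that fit the edgeR test called 7 members, Hbb-bs, Hbb-bt, Hba-a1, Hba-a2, Alas2, Slc4a1 and Car2. All were higher with KO Tconv, with log2 fold changes of 0.66 to 1.01 and adjusted p from 0.00384 to 0.0458. They are 7 of 15 genes called in that fit (0.0816% of 18379). Leaving out KO replicate 1 or KO replicate 3 instead, edgeR called 0 members, where it called 0.00543% of 18406 genes and 0% of 18435 genes. DESeq2 on the 5 libraries called 1 member, Hba-a1 (log2 fold change 0.63, adjusted p = 0.0482), where it called 1.23% of 14522 genes, 0.482% on the higher side. Of 19 other lists, 0 had a gene that passed edgeR's adjusted threshold in these 5 libraries; late erythroid genes had a median log2 fold change of 0.47, intermediate neutrophil genes 1.48 and T cell reference genes 0.01. Several lists of other cell types were above 0 as well, with medians of 1.76 for the 3 eosinophil genes tested, 0.73 for B cells, 0.59 for red pulp macrophages and 0.55 for plasma cells. Monocyte, basophil and mast cell, and NK cell lists had medians of 0.43, 0.38 and 0.35. Platelet and CD8 T cell lists lay near 0, at 0.097 and 0.065. Treg genes were at -0.035, and the 1 dendritic cell gene tested was at -1.07.

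With WT replicate 3 included, the sign of the difference turned. In the fit of all 6 libraries, all 37 members had a log2 fold change below 0, where 48.5% of all genes were above 0, with a median of -2.05, and 32 were below -1, where 3.53% of all genes were. For Hbb-bs it was -2.10 in 6 libraries and 0.56 ± 0.28 SE in 5, for Klf1 -3.01 and 0.55 ± 0.38, for Ltf -2.21 and 1.34 ± 0.65, and for Mpo -0.97 and 0.77 ± 1.01. The 6-library values contain the library that chose the members and are given without a test. For 35 of 37 members the direction between the groups thus rested on 1 library of 6. Fech and Mmp9 were below 0 in both fits.

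**Figure D5:**
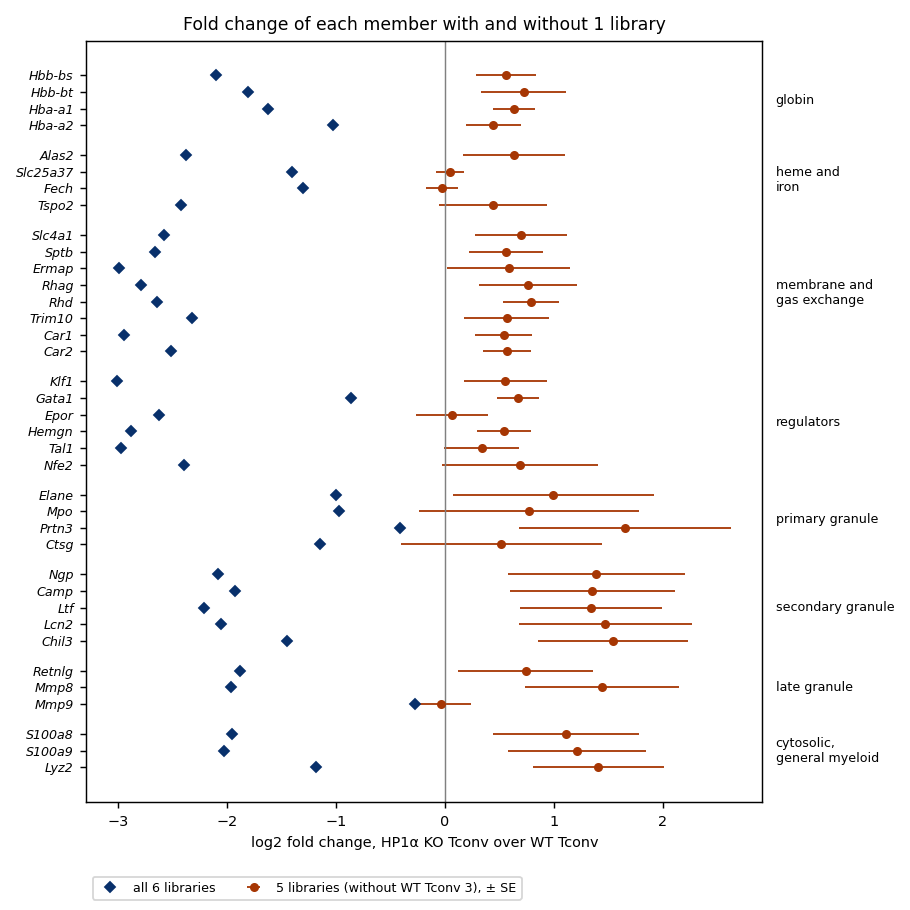
Log2 fold change of each member, HP1α KO over WT Tconv, in the 5 libraries without WT replicate 3 (orange circles, with bars of 1 SE) and in all 6 libraries (blue diamonds, no error drawn). All 37 diamonds lie below 0, and 35 of 37 circles lie above it.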

How the data were processed

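Treg were sequenced as total RNA in 6 libraries, 3 with WT Tconv and 3 with HP1α KO Tconv, with groups taken from the sample labels. The authors trimmed reads, aligned them with STAR to GRCm39 (mm39) and quantified genes with Salmon. The deposited values are estimated counts, as whole numbers, and were not normalized. Salmon splits reads shared by near-identical genes by a model. Levels are counts over the library total times 1000000 (CPM). Ratios carry 95% Clopper-Pearson intervals of the 2 counts, which, like a floor of 3 counts, cover counting error only, since reads carry no molecular identifiers. Members and lists were chosen with earlier results of these data known. Named were all members, genes of the stage and cell type lists, and the 15 other genes with the largest ratio among those with at least 200 counts in WT replicate 3.

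Group differences were tested with edgeR version 4.0.16 in R version 4.3.3 (TMM, filterByExpr, robust quasi-likelihood F-test) without WT replicate 3, with DESeq2 version 1.42.0 and limma-voom (version 3.58.1) as alternatives, beside other scalings, count filters, leaving out libraries and a replicate block. The scripts were tested on simulated data. Replicate pairs differed by more than sampling noise (chi-square over its degrees of freedom at least 21.6). A GENCODE annotation of GRCm39, later than that of the authors, gave gene positions and exon overlaps, and upstream sequences from RefSeq. Some genes of the lists are not reported here by name.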

Additional observations from a re-analysis of the deposited data

How the results depend on the processing

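Without WT replicate 3, 0 of 37 members passed the edgeR threshold in the 5 libraries. The count was 0 as well with limma-voom, with RLE normalization, with total counts as the sole scaling, with totals and TMM computed without the members, and with no filter beyond 1 count. The last of these fits called 57 of all 28185 genes (0.202%), and each of the others, like the main fit, called 0 genes. With at least 10 counts in every library, 0 of the 34 members tested passed, and 0 of all 16556 genes. With DESeq2, 1 member passed, where 1.23% of 14522 genes did and 3 members (Elane, Prtn3 and Ctsg) had no adjusted p. Leaving out KO replicate 1, 2 or 3 gave 0, 7 and 0 members, where 0.00543%, 0.0816% and 0% of all genes were called. Leaving out a WT library left 1 in that group, so only the median log2 fold change of the members is given. It was 0.73 without WT replicate 1 and 0.61 without WT replicate 2. The number of members with a log2 fold change above 0 was 35 in the main fit, 32 of the 34 tested with at least 10 counts in every library, 32 to 37 of 37 under the other alternatives without WT replicate 3 and without a block, leaving out another library included, and 0 with all 6 libraries. In that 6-library fit the log2 fold changes that turned were -2.10 for Hbb-bs, -1.80 for Hbb-bt, -1.62 for Hba-a1, -1.03 for Hba-a2, -2.37 for Alas2, -1.41 for Slc25a37, -2.43 for Tspo2, -2.58 for Slc4a1, -2.66 for Sptb, -2.99 for Ermap, -2.79 for Rhag, -2.64 for Rhd, -2.32 for Trim10, -2.94 for Car1, -2.52 for Car2, -3.01 for Klf1, -0.86 for Gata1, -2.62 for Epor, -2.88 for Hemgn, -2.98 for Tal1, -2.40 for Nfe2, -0.998 for Elane, -0.97 for Mpo, -0.41 for Prtn3, -1.15 for Ctsg, -2.08 for Ngp, -1.92 for Camp, -2.21 for Ltf, -2.05 for Lcn2, -1.45 for Chil3, -1.88 for Retnlg, -1.97 for Mmp8, -1.96 for S100a8, -2.03 for S100a9 and -1.19 for Lyz2. That fit adds the 1 library that chose the members, and with it the filter kept 18321 genes in place of 18678. 

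Same-numbered libraries did not deviate together (correlations of -0.042, 0.18 and 0.12 for replicates 1, 2 and 3), so the numbers are not taken to pair the libraries. With the replicate number as a block, 2 members passed in the 5 libraries (Ltf and S100a9, of 9 genes called), 29 were above 0, and the values that turned were -0.018 for Slc25a37, -0.13 for Tspo2, -0.095 for Nfe2, -0.17 for Elane, -0.30 for Mpo and -0.57 for Ctsg. With the block and all 6 libraries, again given without a test, 3 members were above 0, and the values that turned were -0.74 for Hbb-bs, -0.61 for Hbb-bt, -0.50 for Hba-a1, -0.46 for Hba-a2, -0.92 for Alas2, -0.81 for Slc25a37, -1.19 for Tspo2, -0.83 for Slc4a1, -0.91 for Sptb, -1.26 for Ermap, -0.95 for Rhag, -0.72 for Rhd, -0.90 for Trim10, -0.88 for Car1, -0.78 for Car2, -1.12 for Klf1, -0.24 for Gata1, -1.22 for Epor, -0.93 for Hemgn, -1.18 for Tal1, -1.24 for Nfe2, -0.70 for Elane, -0.66 for Mpo, -0.96 for Ctsg, -0.26 for Ngp, -0.27 for Camp, -0.20 for Ltf, -0.19 for Lcn2, -0.83 for Retnlg, -0.49 for Mmp8, -0.34 for S100a8 and -0.19 for S100a9. 

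Log2 fold changes of some members also turned under alternatives without WT replicate 3. With limma-voom they were -0.056 for Ctsg and 0.036 for Mmp9, and with total counts only 0.0057 for Fech and 0.000201 for Mmp9. Leaving out 1 library in turn, the values of the genes that turned ranged from -0.19 to 0.37 for Epor, -0.44 to 0.52 for Mmp9, -0.022 to 0.16 for Slc25a37, -0.10 to 0.12 for Fech, -0.025 to 0.80 for Tspo2, -0.11 to 1.52 for Mpo and -0.24 to 1.14 for Ctsg. The cause was not tested. The ratio of summed levels in WT replicate 3 to the highest other library was 8.67 for red cell members by library totals and 8.91 with TMM, 9.0 with RLE and 10.0 relative to the T cell reference sum. For granulocyte members it was 6.74, and 6.93, 7.00 and 7.78. Summed differences between the groups kept their sign when 1 library was left out, at 175 to 365 CPM for red cell members and 87.4 to 186 CPM for granulocyte members, and moved by less than 1 SD. Mpo, Elane, Prtn3 and Ctsg held 7 to 96 counts in some libraries, which limits what can be said of primary granule genes.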
